A study of Mus musculus with 8 samples.

Results

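Nucleotide excision repair removes bulky lesions such as ultraviolet photoproducts from DNA, and the 10 genes described here encode its recognition, unwinding and incision proteins: Xpc, Ddb2, Ercc6, Ercc8, Ercc3, Ercc2, Xpa, Ercc5, Ercc4 and Ercc1. They were chosen by name as core factors of this pathway, with earlier results of these data known, and are 10 of the 55487 genes in the deposited count table. The study measured liver RNA of 8 mice labelled female, 1 library per mouse, by stranded total RNA sequencing. The Ercc1-/Δ group held 2 mice of 15.1 and 13.7 weeks, the NemoDK;Ercc1-/Δ group 2 mice of 11.8 weeks each, and the WT group 4 mice of 10.7, 12.3, 11.1 and 11.8 weeks. Both mutant groups thus shared the Ercc1-/Δ genotype, in which, as background, one allele is null and the other encodes a truncated ERCC1 with residual function. NemoDK;Ercc1-/Δ mice carried in addition an allele of Nemo (Ikbkg), a scaffold protein of the IKK complex in NF-kB signalling. The labels write the genotypes as Ercc1 -/D and NEMO DK; Ercc1-/D and do not explain DK, and no floxed allele or Cre driver is named in them.

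As background, lesions are found in 2 ways. In global genome repair XPC, helped by DDB2, binds the distorted helix, whereas in transcription-coupled repair a stalled RNA polymerase recruits CSB (Ercc6) and CSA (Ercc8). Both routes lead to TFIIH, whose helicases XPB (Ercc3) and XPD (Ercc2) open the helix, to XPA, which checks the lesion, and to the nucleases XPG (Ercc5) and ERCC1-XPF (Ercc1 and Ercc4), which cut on either side of it. ERCC1-XPF also acts in crosslink repair, and loss of ERCC1 in mice is known for liver pathology and polyploid hepatocytes.

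Libraries held 21.6 to 27.8 M counts, and levels are given as CPM, counts scaled to a common library size with TMM factors. Log2 CPM correlated at 0.919 to 0.948 between mutant and WT libraries and at 0.957 to 0.988 within a group. Both Ercc1-/Δ mice were older than every other mouse, so age and the Ercc1-/Δ group cannot be told apart in a contrast of those groups alone. WT library 3 had 0 Xist counts and 3087 counts of Y-linked genes, which goes against its label, and results are therefore given without it where that matters. Of 6 hepatocyte markers, 5 were lower and 0 higher in the mutant livers, and their summed level was 82471 to 83753 CPM in Ercc1-/Δ, 82753 to 84553 CPM in NemoDK;Ercc1-/Δ and 107657 to 134022 CPM in WT, with no marker at 0 in any library. Of all 15598 genes tested, 13.9% were lower and 14.9% higher in the same contrast. None of the 6 was called with age as a covariate, a fit that called 445 of all genes higher and 382 lower. In whole liver, fewer cells of a type and less RNA per cell cannot be told apart, and the part of either in the results below was not tested.

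Ercc1 and Ercc2 lie 25.486 kb apart on chromosome 7 of GRCm38 and are transcribed in the same direction. Ercc1 spans chr7:19344778-19356524 and Ercc2 chr7:19382010-19395694, both on the plus strand. Their promoters are shown because these genes were the 2 of the 10 whose transcripts were called lower. The sequences are from RefSeq (GRCm38.p6), at chr7:19344821-19345120 for Ercc1 and chr7:19381767-19382066 for Ercc2, both on the plus strand, and run from 250 bases before to 50 bases after the RefSeq start. The Ercc1 window lies wholly inside the GENCODE span of the gene, which starts further upstream than the RefSeq transcript, whereas the Ercc2 window crosses the GENCODE start. Capitals mark the GC box (GGGCGG, or CCGCCC on the other strand) and the CCAAT box (CCAAT, or ATTGG on the other strand).
Ercc1: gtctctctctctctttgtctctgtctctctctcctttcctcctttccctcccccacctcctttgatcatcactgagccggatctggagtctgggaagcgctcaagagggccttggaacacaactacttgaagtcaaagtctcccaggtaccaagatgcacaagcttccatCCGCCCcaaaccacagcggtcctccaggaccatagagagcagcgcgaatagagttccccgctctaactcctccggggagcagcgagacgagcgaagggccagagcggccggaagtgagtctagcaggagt
Ercc2: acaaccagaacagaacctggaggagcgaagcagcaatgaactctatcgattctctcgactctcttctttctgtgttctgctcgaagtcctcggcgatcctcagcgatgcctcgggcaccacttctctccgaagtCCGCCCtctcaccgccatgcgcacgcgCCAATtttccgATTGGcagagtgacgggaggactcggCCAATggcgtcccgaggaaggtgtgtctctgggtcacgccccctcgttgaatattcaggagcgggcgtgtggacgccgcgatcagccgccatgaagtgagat
The Ercc1 window held 1 GC box and 0 CCAAT boxes, and the Ercc2 window 1 GC box and 3 CCAAT boxes. Neither window held a TATA box (TATAAA on either strand). Of 32851 mouse promoters of the same length, 35.7% held a GC box, 37.4% a CCAAT box and 13.6% a TATA box. The GC content was 57% for Ercc1 and 58.7% for Ercc2, against a median of 52.7% over those promoters. Promoters were found for 7 of the 10 genes, and these letters are a description, not evidence of binding.

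All 10 transcripts were detected in every library and all passed the filter on low counts. Set against WT, the mean of both mutant groups showed 2 of the 10 transcripts lower (Ercc1 and Ercc2) and 1 higher (Ercc3), by edgeR's quasi-likelihood test with Benjamini-Hochberg adjustment over all tested genes at a threshold of 0.05. Of the 15598 genes tested, 13.9% were lower and 14.9% higher by the same rule (28.8% in either direction), so 2 and 1 of 10 are near the background. Ercc1 is the gene altered in both mutant groups, so a direct effect of its alleles and a response cannot be told apart. The median log2 fold change of the 10 was -0.01. The split depends on the scaling. With upper-quartile factors 2 were lower and 2 higher, next to 1562 and 2786 of all 15598 genes. With library size alone 1 was lower and 5 higher, next to 898 and 4945 of all genes. That scaling shifts the median of all genes by 0.27. Without Ercc1-/Δ library 1 the number higher was 2, because Xpc passed as well.

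**Figure D1:**
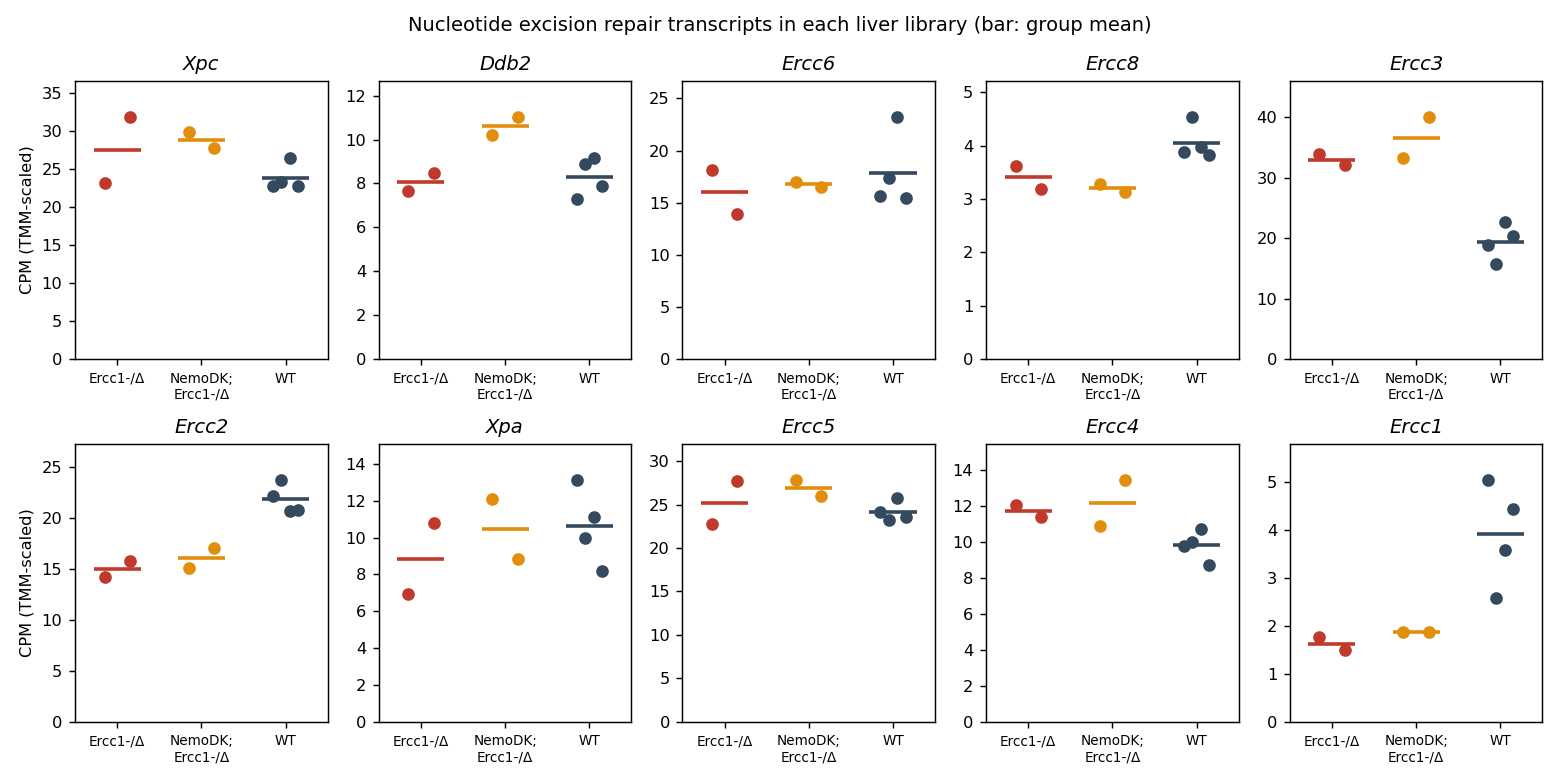
Level of each of the 10 transcripts in every liver library, in TMM-scaled CPM (vertical axis from 0), for Ercc1-/Δ (n = 2), NemoDK;Ercc1-/Δ (n = 2) and WT (n = 4). Points are libraries and bars are group means. For Ercc1, Ercc2 and Ercc8 all 4 mutant points lie below all WT points, as for 15% of the genes tested. For Ercc3 and Ercc4 they lie above all WT points, as for 15.8%.

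Of the 10, the damage recognition genes Xpc, Ddb2, Ercc6 and Ercc8 were not called in any contrast. Xpc, the lesion sensor of global genome repair, had 23.1 and 31.8 CPM in Ercc1-/Δ, 29.8 and 27.7 CPM in NemoDK;Ercc1-/Δ, and 22.7, 23.3, 26.4 and 22.7 CPM in WT. The highest mutant libraries exceeded WT while Ercc1-/Δ library 1 lay among the WT values. The log2 fold change of both mutant groups against WT was 0.24 ± 0.12 (SE, 95% confidence interval -0.02 to 0.50, adjusted p = 0.151). Without Ercc1-/Δ library 1 it was 0.34 and passed (adjusted p = 0.0418), within a range of 0.0121 to 0.429 over all 17 alternative settings. Xpc lies at chr6:91489305-91515888 on the minus strand.

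Ddb2, the partner that binds photoproducts, had 7.66 and 8.49 CPM in Ercc1-/Δ, 10.2 and 11.0 CPM in NemoDK;Ercc1-/Δ, and 7.31, 8.86, 9.17 and 7.87 CPM in WT. Both NemoDK;Ercc1-/Δ libraries lay above every other library, and the Ercc1-/Δ libraries lay within the WT range. Against WT the log2 fold change was -0.04 ± 0.15 in Ercc1-/Δ (adjusted p = 0.871) and 0.35 ± 0.15 in NemoDK;Ercc1-/Δ (adjusted p = 0.128). DDB2 is known as a p53 target in human cells. Of 10 p53 target genes, by comparison, 8 were higher and 0 lower in the mutant livers, next to 14.9% and 13.9% of all genes. With age as a covariate 7 of these 10 were higher and 0 lower, next to 445 and 382 of all 15598 genes. Without age the p53 targets had a median log2 fold change of 1.02. Their summed level was 352 to 399 CPM in Ercc1-/Δ, 349 to 354 CPM in NemoDK;Ercc1-/Δ and 126 to 187 CPM in WT. Among them, Phlda3 had the smallest p (log2 fold change 4.07 ± 0.25, adjusted p = 4.50e-05). Ddb2 lies at chr2:91211572-91236982 on the minus strand. Of its exon length, 23.8% overlaps Acp2 on the other strand, an abundant transcript at 61.6 to 83.6 CPM with a log2 fold change of 0.00 ± 0.11, and the strand setting of the counting is not given in the sources used here.

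Ercc6, whose product CSB is the first factor at a stalled polymerase, had 18.1 and 13.9 CPM in Ercc1-/Δ, 17.0 and 16.5 CPM in NemoDK;Ercc1-/Δ, and 15.6, 17.4, 23.2 and 15.4 CPM in WT. The groups overlapped, and WT library 3 was the highest. Its log2 fold change was -0.13 ± 0.15 (adjusted p = 0.570), and 0.03 without WT library 3 (adjusted p = 0.882, within 0.351 to 0.882 over 17 alternatives). Ercc8, which encodes the CSA subunit of a ubiquitin ligase, had 3.63 and 3.19 CPM in Ercc1-/Δ, 3.29 and 3.13 CPM in NemoDK;Ercc1-/Δ, and 3.87, 4.53, 3.97 and 3.82 CPM in WT. All mutant libraries were below all WT libraries, as for 15% of the genes tested. The log2 fold change of -0.29 ± 0.15 missed the threshold, however (95% confidence interval -0.63 to 0.04, adjusted p = 0.170). Both genes are on plus strands, Ercc6 at chr14:32513521-32580990 and Ercc8 at chr13:108158731-108195364.

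The helicase genes of TFIIH moved in opposite directions. Ercc3, which encodes XPB, had 34.0 and 32.1 CPM in Ercc1-/Δ, 33.3 and 40.0 CPM in NemoDK;Ercc1-/Δ, and 18.8, 15.7, 22.8 and 20.3 CPM in WT. Every mutant library lay well above every WT library, where 15.8% of all genes tested had all mutant libraries above all WT libraries. Ercc3 was 1.79-fold higher in the mutant livers than in WT (log2 fold change 0.84 ± 0.13, 95% confidence interval 0.56 to 1.13, adjusted p = 0.00212). No single library decided the call, with log2 fold changes of 0.75 to 0.93 after leaving each out. With age as a covariate the log2 fold change was 0.98 with adjusted p = 0.0547, the highest of 17 alternatives, whose lowest was 7.46e-07. The gene lies on chromosome 18.

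Ercc2, which encodes the XPD helicase, had 14.2 and 15.7 CPM in Ercc1-/Δ, 15.1 and 17.1 CPM in NemoDK;Ercc1-/Δ, and 22.1, 23.7, 20.7 and 20.8 CPM in WT. All mutant libraries lay below all WT libraries, as for 15% of the genes tested. The mutant level was 71.1% of the WT level (log2 fold change -0.49 ± 0.09, 95% confidence interval -0.71 to -0.28, adjusted p = 0.00625). Leaving out any 1 library kept the call, at -0.54 to -0.45. Scaling by library size alone, which moves the median of all genes to 0.27, gave -0.22 with adjusted p = 0.0828, and age as a covariate gave -0.49 with adjusted p = 0.129. Adjusted p ranged from 5.17e-04 to 0.129 over the 17 alternatives. Exons of Ercc2 overlap those of Klc3 over 17.8% and Gm26852 over 24.6% of their length on the other strand, and Mir343 over 11 bases on the same strand. Klc3 was at 0.0733 to 0.577 CPM over the 8 libraries and Gm26852 had 0 counts in every library, both far below Ercc2.

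**Figure D2:**
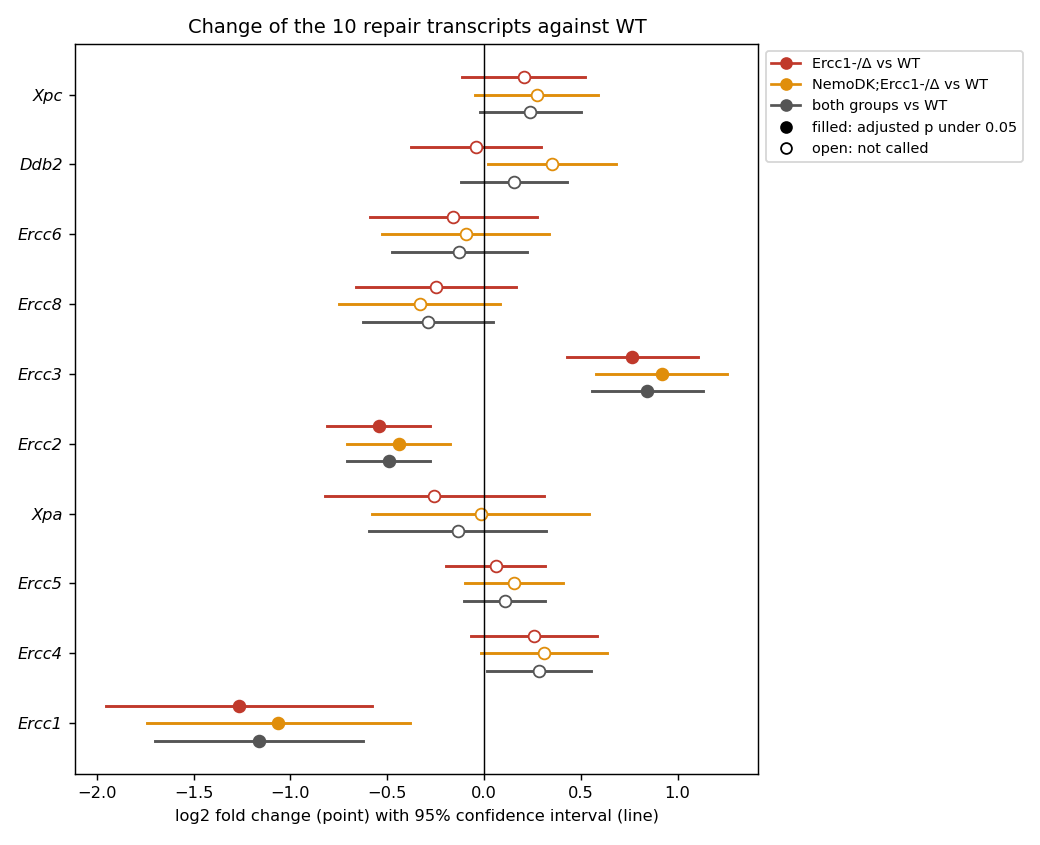
Log2 fold change of each of the 10 transcripts (horizontal axis) in Ercc1-/Δ, in NemoDK;Ercc1-/Δ and in the mean of both groups, each against WT, with 95% confidence intervals as lines. Filled points passed an adjusted p of 0.05; Ercc3 lies above 0 and Ercc2 and Ercc1 below it in all 3 contrasts, and the other 7 genes are open points.

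The lesion verifier and the XPG nuclease showed no call. Xpa, the scaffold that checks the lesion, had 6.93 and 10.8 CPM in Ercc1-/Δ, 12.1 and 8.81 CPM in NemoDK;Ercc1-/Δ, and 13.1, 9.97, 11.1 and 8.18 CPM in WT. Its libraries varied as much within groups as between them, and the log2 fold change was -0.14 ± 0.20 (95% confidence interval -0.59 to 0.32, adjusted p = 0.645). Its exons (gene at chr4:46155347-46196311, minus strand) overlap Ncbp1, a cap-binding protein gene, over 4.07% of their length on the other strand, and Ncbp1 was at 19.6 to 30.2 CPM (log2 fold change 0.10 ± 0.12, adjusted p = 0.579). Ercc5, the XPG nuclease, had 22.7 and 27.7 CPM in Ercc1-/Δ, 27.8 and 26.0 CPM in NemoDK;Ercc1-/Δ, and 24.2, 23.2, 25.8 and 23.6 CPM in WT. The groups overlapped, with a log2 fold change of 0.11 ± 0.09 (95% confidence interval -0.10 to 0.31, adjusted p = 0.415). Ercc5 lies at chr1:44147744-44181260 on the plus strand.

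Ercc1 and Ercc4 encode the 2 subunits of a single nuclease, and their transcripts differed in their values. Ercc1 fell to 1.76 and 1.49 CPM in Ercc1-/Δ and 1.87 and 1.86 CPM in NemoDK;Ercc1-/Δ, against 5.04, 2.57, 3.58 and 4.44 CPM in WT. The raw counts behind these levels were 48 and 44 in Ercc1-/Δ, 57 and 44 in NemoDK;Ercc1-/Δ, and 104, 51, 82 and 115 in WT, the smallest counts of the 10 genes in the mutant livers. The WT libraries spread widely, but none reached down to a mutant library, as for 15% of the genes tested. The mutant mean was 44.6% of WT (log2 fold change -1.16 ± 0.24, 95% confidence interval -1.70 to -0.63, adjusted p = 0.00806). Leaving out any 1 library gave -1.32 to -1.01, always past the threshold, whereas age as a covariate gave -0.82 with adjusted p = 0.287, the highest over 17 alternatives whose lowest was 1.90e-04.

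Ercc4, which encodes the catalytic partner XPF, had 12.1 and 11.4 CPM in Ercc1-/Δ, 10.9 and 13.4 CPM in NemoDK;Ercc1-/Δ, and 9.78, 9.97, 10.7 and 8.72 CPM in WT. All mutant libraries lay above all WT libraries, as for 15.8% of all genes tested, though NemoDK;Ercc1-/Δ library 1 exceeded the highest WT library by little. The log2 fold change of 0.28 ± 0.12 did not pass (95% confidence interval 0.02 to 0.55, adjusted p = 0.103). Ercc4 lies at chr16:13109684-13150617 on the plus strand. The interval of its change lies wholly above that for Ercc1.

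Within single mutant groups the same 3 genes were called in the same direction, 1 higher and 2 lower in each, but the calls rested on few libraries. The background over all genes was 11.3% called higher and 9.5% lower for Ercc1-/Δ against WT (20.8% in either direction), and 10.6% and 7.4% for NemoDK;Ercc1-/Δ against WT (18%). Both contrasts share the 4 WT libraries, so they are not independent. In Ercc1-/Δ against WT the log2 fold changes were -1.26 ± 0.30 for Ercc1 (adjusted p = 0.0205), -0.54 ± 0.12 for Ercc2 (adjusted p = 0.0141) and 0.77 ± 0.15 for Ercc3 (adjusted p = 0.00934). Without Ercc1-/Δ library 1 these became -1.39 (adjusted p = 0.0870), -0.47 (0.0977) and 0.72 (0.0704), all no longer called, and without Ercc1-/Δ library 2 Ercc1 was at -1.15 (0.111). With age as a covariate none of the 3 passed in Ercc1-/Δ, where 24 of all 15598 genes were higher and 17 lower.

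In NemoDK;Ercc1-/Δ against WT the log2 fold changes were -1.06 ± 0.30 for Ercc1 (adjusted p = 0.0410), -0.44 ± 0.12 for Ercc2 (adjusted p = 0.0336) and 0.92 ± 0.15 for Ercc3 (adjusted p = 0.00544). The ages of these mice lie within the WT range, and with age as a covariate Ercc3 was at 0.95 (adjusted p = 0.00920) and Ercc2 at -0.44 (0.0484), both still called, while Ercc1 was at -0.98 (0.0659). Leaving out NemoDK;Ercc1-/Δ library 2 ended the Ercc3 call (0.78, adjusted p = 0.0708). The Ercc2 call ended without NemoDK;Ercc1-/Δ library 1 (-0.36, 0.267) or 2 (-0.53, 0.120), or WT library 1 (-0.44, 0.0636), 2 (-0.40, 0.0559) or 4 (-0.46, 0.0570). The Ercc1 call was kept without WT library 2 or 3, and ended without any other library, at -1.07 to -0.92 with adjusted p of 0.0530 to 0.214.

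The question of whether the Nemo allele alters these transcripts in mice of the same Ercc1 genotype is addressed by NemoDK;Ercc1-/Δ against Ercc1-/Δ, in which 0 of the 10 were called by edgeR, 0 by DESeq2 and 0 by limma-voom. At an unadjusted p under 0.05, edgeR gave 1 of the 10 and 1062 of all genes. The share of all genes called was 0% by edgeR, while DESeq2 called 33 genes higher and 36 lower. The 1 gene of the 10 was Ddb2, higher in both NemoDK;Ercc1-/Δ libraries than in both Ercc1-/Δ libraries (log2 fold change 0.39 ± 0.17, 95% confidence interval 0.01 to 0.78, adjusted p = 0.730). For Ercc1 the difference was 0.20 ± 0.34, with an interval from -0.57 to 0.98, which is wide with 2 mice per group. The NemoDK;Ercc1-/Δ mice were also 11.8 weeks old, against 15.1 and 13.7 weeks in Ercc1-/Δ, so the Nemo allele and age cannot be told apart here.

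Per kilobase of exon, Ercc3 was the highest of the 10 transcripts in both conditions and Ercc8 the lowest. In the 4 mutant livers together the mean levels were 12.3 CPM per kb for Ercc3, 5.11 for Xpc, 5.10 for Xpa, 4.44 for Ercc5, 3.72 for Ercc2, 3.41 for Ddb2, 1.77 for Ercc4, 1.27 for Ercc6, 0.562 for Ercc1 and 0.432 for Ercc8. In WT they were 6.84 for Ercc3, 5.60 for Xpa, 5.23 for Ercc2, 4.33 for Xpc, 4.13 for Ercc5, 3.04 for Ddb2, 1.46 for Ercc4, 1.39 for Ercc6, 1.26 for Ercc1 and 0.529 for Ercc8. WT libraries of neighbouring genes in this order overlapped for Ercc3 and Xpa, Xpa and Ercc2, Xpc and Ercc5, Ercc4 and Ercc6, and Ercc6 and Ercc1. In WT the Ercc1 libraries (0.826 to 1.62 CPM per kb) overlapped in part with those of Ercc4 and Ercc6, whereas in the mutant livers every Ercc1 value lay below every value of both. Between mutant livers and WT the places of 4 genes differed. Ercc2 was the fifth in mutant livers and the third in WT, Xpc the second and the fourth, Xpa the third and the second, and Ercc5 the fourth and the fifth. In the mutant livers the libraries of Xpc (4.21 to 5.78 CPM per kb), Xpa (3.66 to 6.39) and Ercc5 (3.88 to 4.75) overlapped. Those of Ercc2 (3.40 to 4.09) overlapped in part with Xpa and Ercc5, so the order among these genes is not settled.

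**Figure D3:**
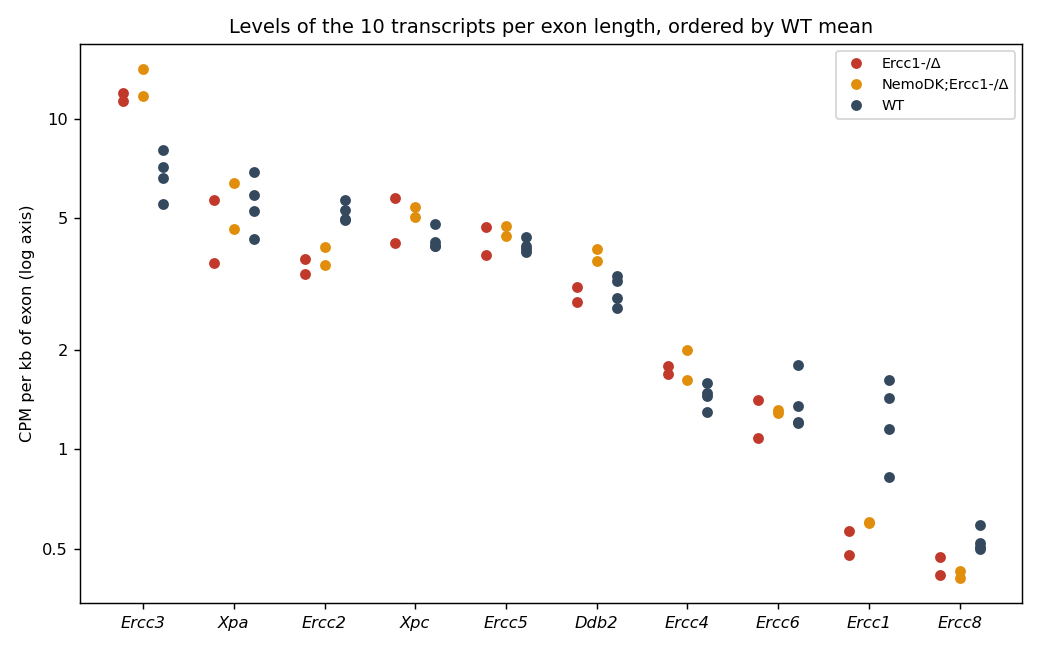
Level of each transcript per kilobase of merged exon length (CPM per kb, log axis) in every library, with genes ordered by their WT mean. Each point is 1 library of Ercc1-/Δ, NemoDK;Ercc1-/Δ or WT; Ercc3 has the widest gap upward from WT and Ercc1 the widest gap downward.

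Of the other genes of the pathway, taken from a list grouped by step, 41 are described here, and all 41 were tested. In both mutant groups against WT 10 were higher and 4 lower, with a median log2 fold change of 0.03, next to 14.9% and 13.9% of all genes. Upper-quartile factors gave 10 higher and 1 lower, next to 2786 and 1562 of all 15598 genes. Library size alone gave 16 higher and 1 lower, next to 4945 and 898 of all genes. The number lower was 1 without any 1 library other than WT library 2 (3) or WT library 3 (2), and the number higher 7 to 10. With age as a covariate 1 was higher (Polk) and 0 lower, where 8 had an unadjusted p under 0.05, next to 24.97% of all genes. The same fit called 445 of all 15598 genes higher and 382 lower, against 2317 and 2171 without age. In the single groups against WT, 11.3% of all genes were higher and 9.5% lower for Ercc1-/Δ, and 10.6% and 7.4% for NemoDK;Ercc1-/Δ. In Ercc1-/Δ against WT 7 were higher and 2 lower, but 1 and 1 without Ercc1-/Δ library 1 and 4 and 0 without Ercc1-/Δ library 2, and 0 were lower without WT library 1, 2 or 4 or either NemoDK;Ercc1-/Δ library. In NemoDK;Ercc1-/Δ against WT 9 were higher and 1 lower, but 3 and 0 without NemoDK;Ercc1-/Δ library 1, 2 and 0 without NemoDK;Ercc1-/Δ library 2, and 8 and 2 without WT library 2. No counts over all genes without a library are given for these single-group contrasts. The drops can therefore not be read as particular to the repair genes. In NemoDK;Ercc1-/Δ against Ercc1-/Δ 0 of the 41 were called by edgeR, DESeq2 or limma-voom. In edgeR 0 of them had an unadjusted p under 0.05, next to 1062 of all 15598 genes. More genes were called at the late steps, RPA and gap filling, than at the early ones, a distribution that was not tested.

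The 6 further genes of global genome recognition were the XPC partners Rad23b and Cetn2 and the DDB2 ligase genes Ddb1, Cul4a, Cul4b and Rbx1. In both mutant groups against WT 0 of them were called by edgeR or DESeq2. By edgeR 14.9% of all genes were higher and 13.9% lower. An unadjusted p under 0.05 was found for 1 of the 6 by edgeR and 2 by DESeq2, next to 41.45% and 40.6% of all genes. The 1 by edgeR was Cul4a (log2 fold change -0.23, adjusted p = 0.0834). In Ercc1-/Δ against WT edgeR called 0 and DESeq2 called 1 higher, Ddb1, at 0.31 ± 0.12 by edgeR (adjusted p = 0.107). DESeq2 called 2029 of all 15598 genes higher in that contrast. Of 6 genes of transcription-coupled recognition, 0 were higher and 3 lower, next to 14.9% and 13.9% of all genes. All 6 had a log2 fold change below 0, as did 7799 of all 15598 genes. With library size alone 3 of 6 were below 0, next to 4205 of all 15598 genes. Usp7, the deubiquitinase that stabilises CSB, had 64.3 and 65.5 CPM in Ercc1-/Δ, 60.6 and 61.6 CPM in NemoDK;Ercc1-/Δ, and 76.4, 72.2, 80.3 and 75.2 CPM in WT. All mutant libraries lay below all WT libraries, as for 15% of the genes tested, and the log2 fold change was -0.27 ± 0.08 (adjusted p = 0.0317).

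The other called genes of that step were Tcea1, the elongation factor TFIIS (-0.33 ± 0.11, adjusted p = 0.0488), and Elof1, an elongation factor that helps to modify the stalled polymerase (-0.29 ± 0.09, adjusted p = 0.0496). All 3 are near the threshold: of 17 alternatives, 6 called Usp7, 3 Tcea1 and 2 Elof1. Leaving out any library other than WT library 2 ended the calls of Usp7 (adjusted p = 0.0589 to 0.117) and Tcea1 (0.0852 to 0.137), and any other than WT library 3 that of Elof1 (0.0782 to 0.146). The count table also holds Tcea1-ps1, a pseudogene copy that may share reads with Tcea1. Of 8 TFIIH genes besides the helicases, 1 was higher and 0 lower: Gtf2h5, a small stabilising subunit (0.29 ± 0.10, adjusted p = 0.0499), which 7 of 17 alternatives called, with an adjusted p of 0.0833 to 0.165 without any 1 library other than WT library 2. Genes of TFIIH other than Ercc2 and Ercc3 thus spanned -0.16 to 0.29, and the 1 of 8 called higher stands next to 14.9% of all genes.

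RPA, the complex that covers the single-stranded DNA opened during repair and replication, had 2 of 3 subunit transcripts higher. Of all genes, 14.9% were higher. Rpa1 had 47.4 and 43.0 CPM in Ercc1-/Δ, 39.8 and 45.5 CPM in NemoDK;Ercc1-/Δ, and 30.7, 25.2, 28.4 and 31.0 CPM in WT. Every mutant library was above every WT library, as for 15.8% of all genes tested (log2 fold change 0.61 ± 0.10, adjusted p = 0.00328). Rpa2 rose similarly (0.56 ± 0.13, adjusted p = 0.0122), and Rpa3 was at 0.21 ± 0.18 (adjusted p = 0.413). With age as a covariate 0 of the 3 were called, next to 445 higher and 382 lower of all 15598 genes.

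Of 18 genes of gap filling and ligation, 7 were higher and 1 lower, next to 14.9% and 13.9% of all genes. With age as a covariate 1 was higher (Polk) and 0 lower, next to 445 and 382 of all 15598 genes. Polk, a polymerase that takes part in repair synthesis, had 9.86 and 11.8 CPM in Ercc1-/Δ, 12.1 and 12.2 CPM in NemoDK;Ercc1-/Δ, and 5.62, 6.04, 4.67 and 5.37 CPM in WT. Every mutant library lay above every WT library, as for 15.8% of all genes tested. The log2 fold change was 1.08 ± 0.13 (adjusted p = 7.80e-04), and all 17 alternatives called Polk. Lig1, the ligase that seals the patch and also joins replication fragments, had 8.03 and 7.40 CPM in Ercc1-/Δ, 8.28 and 11.0 CPM in NemoDK;Ercc1-/Δ, and 3.68, 4.94, 3.36 and 4.75 CPM in WT. It rose in all mutant libraries (1.04 ± 0.17, adjusted p = 0.00338).

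The clamp loader subunits Rfc3 (0.83 ± 0.13, adjusted p = 0.00258) and Rfc2 (0.52 ± 0.09, adjusted p = 0.00328) and the polymerase delta subunit Pold4 (0.79 ± 0.14, adjusted p = 0.00410) were also higher. Named after their values were seen, the polymerase epsilon genes Pole (0.78, adjusted p = 0.0177) and Pole3 (0.39, adjusted p = 0.0237) were higher, and Pole4 was lower (-0.67 ± 0.12, adjusted p = 0.00481). Pole4 had 21.04 and 16.0 CPM in Ercc1-/Δ, 15.6 and 16.6 CPM in NemoDK;Ercc1-/Δ, and 30.1, 28.5, 23.2 and 28.5 CPM in WT. It was the only gene of this step called lower, while Pold2 (-0.15) and Xrcc1 (-0.04) were below 0 and not called. The Pole call ended without NemoDK;Ercc1-/Δ library 2 (0.64, adjusted p = 0.0775), and that of Pole3 without Ercc1-/Δ library 2, NemoDK;Ercc1-/Δ library 1 or 2, or WT library 1 (adjusted p = 0.0535 to 0.0876). Pcna, the clamp itself, was at 0.21 ± 0.13 (adjusted p = 0.267), with pseudogene copies in the table that may share its reads. Of the Pold4 exon length, 24.6% overlaps AC109138.7 on the same strand.

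Many of the genes for gap filling also serve replication. Of 10 proliferation genes, 7 were higher and 0 lower in both mutant groups against WT, next to 14.9% and 13.9% of all genes. Against WT, 7 were higher in Ercc1-/Δ alone and 1 in NemoDK;Ercc1-/Δ alone, next to 11.3% and 10.6% of all genes. These counts depend on the tool: DESeq2 called 8 and 5, and limma-voom 7 and 4. All 10 log2 fold changes were above 0 in each group, with medians of 1.52 and 1.28. Between the mutant groups edgeR called 0, with all 10 log2 fold changes below 0. With age as a covariate 0 of the 10 were called in both groups against WT, next to 445 higher and 382 lower of all 15598 genes. Their median log2 fold change was then 0.78, against 1.42 without age. They had a summed level of 86.7 to 124 CPM in Ercc1-/Δ, 67.5 to 98.0 CPM in NemoDK;Ercc1-/Δ and 31.3 to 66.7 CPM in WT. Markers of other cells moved as well: in both mutant groups against WT 3 of 6 macrophage markers were higher (273.8 to 454 CPM summed in Ercc1-/Δ, 402 to 440 CPM in NemoDK;Ercc1-/Δ, 186 to 343 CPM in WT). Of 6 lymphocyte markers 3 were higher, summing to 4.47 to 10.8 CPM in Ercc1-/Δ, 11.1 to 13.4 CPM in NemoDK;Ercc1-/Δ and 3.80 to 5.49 CPM in WT. Of 4 stellate and matrix markers 3 were higher, summing to 80.2 to 178 CPM in Ercc1-/Δ, 139.9 to 152 CPM in NemoDK;Ercc1-/Δ and 44.3 to 55.7 CPM in WT. In these lists 0 were lower, and of all genes 14.9% were higher and 13.9% lower. Of 4 endothelial markers 2 were higher and 1 lower, of 4 cholangiocyte markers 1 and 0, and of 3 erythroid markers tested 0 and 2. The fit with age as a covariate called 1 macrophage, 0 lymphocyte and 2 stellate and matrix markers higher. It called 1 endothelial, 0 cholangiocyte and 0 erythroid markers higher. In all these lists it called 0 lower, next to 445 higher and 382 lower of all 15598 genes. None of the tested markers was at 0 in any library, and their part in the changes of repair genes was not tested.

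**Figure D4:**
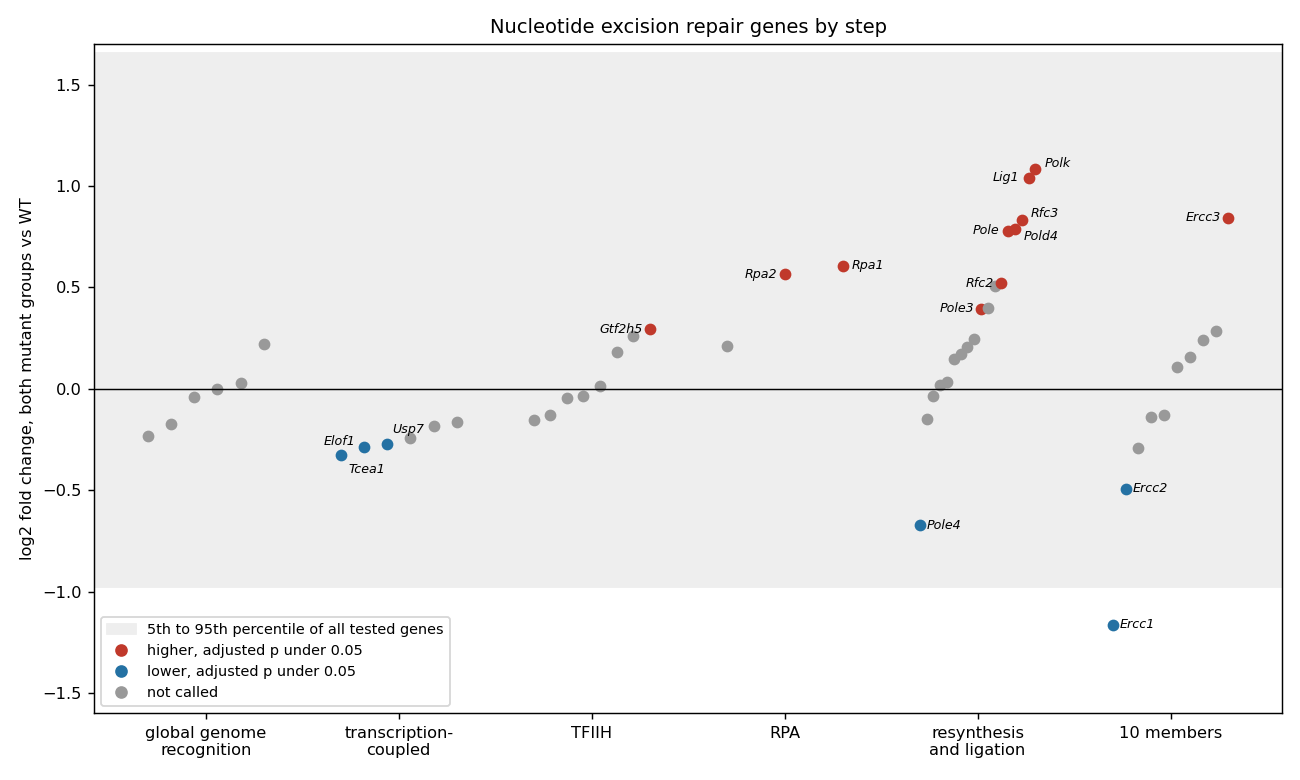
Log2 fold change of both mutant groups against WT (vertical axis) for the 41 other repair genes, grouped by step, and for the 10 genes described first. Red points were higher and blue points lower at an adjusted p under 0.05, grey points were not called, and the shaded band spans the 5th to 95th percentile of all tested genes, -0.98 to 1.66; only Ercc1 lies outside it.

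Because Ercc1 and Ercc2 lie close together and both fell, the tested genes that lie at least in part within 100 kb of Ercc1 were examined, a window chosen after these falls were seen. Of the 8 genes other than Ercc1, 2 were lower, 1 of them Ercc2 itself, and 1 was higher, next to 13.9% lower and 14.9% higher of all genes. Ppp1r13l, which encodes the p53 regulator iASPP and lies between Ercc1 and Ercc2, was lower (-0.47 ± 0.15, adjusted p = 0.0433), although 6 of 17 alternatives called it, and leaving out any 1 library other than WT library 1 ended the call (adjusted p = 0.0762 to 0.149). Vasp, an actin regulator on the other side of Ercc1, was higher (0.36 ± 0.08, adjusted p = 0.00915), at 23.7 to 27.7 CPM in the mutant livers and 19.3 to 21.2 CPM in WT. With age as a covariate it was at 0.43 and not called (adjusted p = 0.107, the highest over 17 alternatives, whose lowest was 7.37e-04). Cd3eap, a subunit of RNA polymerase I that overlaps the end of Ercc1 over 106 bases (3.41% of the Ercc1 exon length) on the other strand, was not called (-0.39 ± 0.14, adjusted p = 0.0640). Opa3, Rtn2, Klc3 and Mark4 were not called either.

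**Figure D5:**
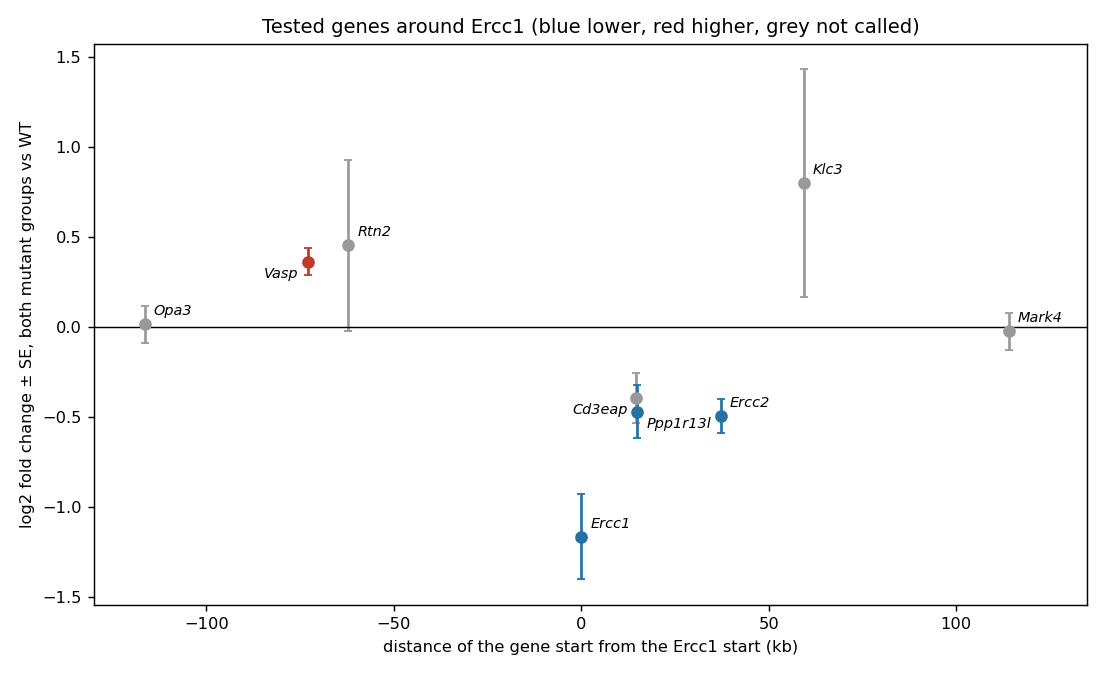
Log2 fold change with its SE (vertical axis) of both mutant groups against WT for Ercc1 and 8 nearby tested genes, by the distance of each gene's start from the Ercc1 start (kb, horizontal axis). Blue points were lower, red higher and grey not called; Ercc1 at -1.16 is the lowest and Vasp at 0.36 is the only one called higher.

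Over the 8 libraries, the transcripts whose log2 CPM followed Ercc1 most closely among 13034 genes of at least 1 CPM were Rbm39 (Pearson r = 0.98), Zfp109 (0.98), mt-Nd2 (0.98), Klb (0.98) and 0610043K17Rik (0.97). As an example, Klb, the fibroblast growth factor co-receptor, had 23.2 and 20.3 CPM in Ercc1-/Δ, 27.0 and 27.96 CPM in NemoDK;Ercc1-/Δ, and 59.0, 33.8, 47.0 and 44.8 CPM in WT. Like Ercc1, it was low in all mutant libraries and lowest among WT in library 2. Among the repair genes, r with Ercc1 was 0.79 for Ercc2, -0.75 for Ercc3 and -0.76 for Ercc4. These libraries share genotype groups that differ widely, so the values are a description.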

How the data were processed

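Reads were handled with HISAT2 2.1.0, featureCounts and FastQC on GRCm38, per the submitters' processing notes, and the authors deposited 1 table of raw counts per gene for the 8 libraries. The annotation release, strand setting and handling of reads with several alignments are not given in the sources used here. The analysis used edgeR 4.0.16 in R 4.3.3: filterByExpr on the 3 groups left 15598 genes, TMM factors were computed, and all 8 libraries entered 1 quasi-likelihood model with group means (5 residual and 3.67 prior degrees of freedom, biological coefficient of variation 0.227). CPM values use TMM-scaled library sizes. Benjamini-Hochberg adjustment covered all genes tested, and 0.05 was the threshold. Each SE was computed as |log2 fold change| over the root of the F statistic, and intervals are at 95%. Where both mutant groups are set against WT, the mean of the 2 group means was tested.

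Alternatives were other scaling factors and filters, DESeq2 1.42.0, limma 3.58.1 voom, robust empirical Bayes, age as a covariate, the compared groups alone and leaving out each library. Where 1 library of a mutant group is left, it is assumed to vary like the other groups. Coordinates and merged exon lengths come from GENCODE M21 (GRCm38), which held 55141 of the 55487 identifiers, and promoters from RefSeq. The scripts were tested on simulated data. The members and gene lists were chosen with earlier results of these data known. Named besides the members were called genes of each repair step (up to 5 by smallest p), genes overlapping a member, examples from context lists, and the 5 transcripts most like Ercc1. Other names were chosen after their values were seen. One gene of the repair list is not reported here and is left out of its counts. The labels call the mice independent biological replicates. Figures were drawn with matplotlib 3.10.9.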

Additional observations from a re-analysis of the deposited data

Results flagged for a closer look

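Dixon's test for a library far from the others was run on the 4 WT libraries for 39 genes, and chance alone flags about 1 in 20 groups. These were the 10 members, examples of the repair, p53 target and proliferation lists, neighbours of Ercc1, and Pole, Pole3 and Pole4. Not every gene named in the text was included. The test singled out 3 values. Xpc was at 26.4 CPM in WT library 3, above the other WT libraries, which lay between 22.7 and 23.3 CPM. The p53 target Ccng1 was at 41.4 CPM in WT library 1, and the replication gene Mcm6 at 9.77 CPM in WT library 4, each apart from the other 3 WT libraries. Their causes were not tested.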

How the results depend on the processing

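No paired analysis was possible because the labels give no number or batch that ties mice of different groups together. Fold changes below are log2, and the cause of each shift was not tested. Leaving out 1 library gave ranges for Ercc1 of -1.42 to -1.11 in Ercc1-/Δ against WT, -1.22 to -0.92 in NemoDK;Ercc1-/Δ against WT, -1.32 to -1.01 in both against WT, and 0.09 to 0.32 between mutant groups. It gave 0 to 1 members higher and 0 to 2 lower in each mutant group, and 1 to 2 higher and 2 lower in both together. For the 41 other repair genes it gave 1 to 7 higher and 0 to 2 lower in Ercc1-/Δ, 2 to 9 higher and 0 to 2 lower in NemoDK;Ercc1-/Δ, and 7 to 10 higher and 1 to 3 lower in both. Between the mutant groups 0 members and 0 other repair genes were called under every setting run.

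Age as a covariate gave Ercc1 -0.65 in Ercc1-/Δ, -0.98 in NemoDK;Ercc1-/Δ and -0.82 in both, none called, and reversed it to -0.33 between mutant groups. It left 0 members higher and 0 lower in Ercc1-/Δ and in both, 1 lower in NemoDK;Ercc1-/Δ, and of the other repair genes 0 and 0 in Ercc1-/Δ and 1 and 0 in both. Of all 15598 genes the same fit called 24 higher and 17 lower in Ercc1-/Δ, 1584 and 1058 in NemoDK;Ercc1-/Δ, and 445 and 382 in both. Library size alone shifted the median of all genes by 0.27. It gave 3 members higher and 1 lower in Ercc1-/Δ, 5 and 0 in NemoDK;Ercc1-/Δ, and 5 and 1 in both. Of the other repair genes 14 were higher and 0 lower in Ercc1-/Δ and 16 and 1 in both. Of all 15598 genes, library size alone called 3765 higher and 690 lower in Ercc1-/Δ, 3508 and 490 in NemoDK;Ercc1-/Δ, and 4945 and 898 in both. Among NemoDK;Ercc1-/Δ results, Ercc1 was not called with upper-quartile factors (-0.97), library size alone (-0.80) or the compared groups alone (-1.06), and members lower were 0 with upper-quartile factors, 1 without a filter and 1 with the compared groups alone. Upper-quartile factors gave 2 members higher in both groups. Other repair genes lower numbered 0 (upper-quartile), 1 (no filter) and 0 (compared groups alone) in Ercc1-/Δ, and 2 (DESeq2) and 2 (voom) in NemoDK;Ercc1-/Δ. In both they numbered 2 (RLE), 1 (upper-quartile), 1 (no filter), 2 (filter at 1 CPM) and 2 (voom). The compared groups alone gave no separate value for both groups against WT, which uses all 8 libraries.

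Other signs that reversed were of values not called by the main test, except Mcm6, which had been called in Ercc1-/Δ (1.43). In Ercc1-/Δ against WT, Ercc5 was -0.092 to 0.19 (leaving out 1 library) and Ercc6 was 0.11 (library size) and -0.36 to 0.016 (leaving out 1 library). Ercc8 was 0.019 (library size) and Xpa was 0.012 (library size), 0.77 (age) and -0.61 to 0.025 (leaving out 1 library). Xpc was -0.042 to 0.41 (leaving out 1 library) and Ddb2 was 0.035 (upper quartile), 0.22 (library size) and -0.12 to 0.029 (leaving out 1 library). Usp7 was 0.038 (library size) and Tcea1 was 0.0065 (library size) and 0.048 (age). Gtf2h5 was -0.069 (age) and Mcm6 was -0.15 (age). In NemoDK;Ercc1-/Δ against WT, Ercc6 was 0.0052 (upper quartile), 0.17 (library size) and -0.16 to 0.051 (leaving out 1 library) and Xpa was 0.081 (upper quartile), 0.25 (library size), 0.014 (voom), 0.11 (age) and -0.27 to 0.19 (leaving out 1 library). Elof1 was 0.094 (library size). In both against WT, Ercc6 was 0.14 (library size) and -0.23 to 0.031 (leaving out 1 library) and Xpa was 0.13 (library size), 0.44 (age) and -0.32 to 0.0020 (leaving out 1 library). Opa3 was -0.19 (age) and -0.037 to 0.081 (leaving out 1 library) and Klc3 was -0.25 to 1.19 (leaving out 1 library). Mark4 was 0.063 (upper quartile), 0.24 (library size), 0.15 (age) and -0.094 to 0.036 (leaving out 1 library). Between the mutant groups, Ercc3 was -0.072 (age) and Ercc4 was -0.11 to 0.20 (leaving out 1 library). Ercc5 was -0.21 (age) and -0.043 to 0.24 (leaving out 1 library) and Ercc6 was -0.11 to 0.26 (leaving out 1 library). Ercc8 was 0.23 (age) and -0.18 to 0.0081 (leaving out 1 library) and Xpa was -0.65 (age) and -0.046 to 0.59 (leaving out 1 library). Xpc was -0.32 (age) and -0.15 to 0.31 (leaving out 1 library). Among the 10 members Ercc1 had the fewest counts in the mutant livers, 44 to 57 in each library.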
